A study of Mus musculus with 6 samples.

Results

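The AP-1 transcription factors are represented here by 8 genes of the Fos family (Fos, Fosb, Fosl1 and Fosl2), the Jun family (Jun, Junb and Jund) and their ATF relative Atf3. They were picked by name from the 53421 genes of an RNA-seq count table of cerebellar granule cells (GCs) after knockdown (KD) of YTHDF2, and all 8 were among the 17214 genes with enough counts to be tested. The choice was made with the difference between KD and control already known for these genes. Their levels in the 2 groups are therefore given as a description, without a p-value, and their lower level after KD is the reason for their selection and not a finding.

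The study asked which mRNAs change in GCs when YTHDF2, a protein that reads the m6A mark on mRNA and is best known for shortening the life of the transcripts it binds, is reduced. All libraries came from cerebellar GCs of C57BL/6 mice, labelled postnatal day 8, which were dissociated, cultured in Neurobasal A with B27, infected with lentivirus and, by the methods, selected with puromycin. The 3 shYthdf2 libraries carried 1 hairpin against Ythdf2 (by the library names, hairpin 3 of the study), and the 3 shCtrl libraries carried a control hairpin. Both groups bear the numbers 1, 2 and 4 in their library names. With 1 hairpin, its effects on other mRNAs cannot be told apart from those of less YTHDF2. The sample titles and genotype fields give the groups the other way round from the library names. The library names were followed here: the group means of the study's own table of changed genes were matched by 923 of 923 genes within 0.1% when groups were taken from the library names and by 0 genes when they were exchanged. If the titles were right, every direction below would be inverted.

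Ythdf2 itself had 501, 403 and 501 TMM-normalized counts (counts scaled to a common library size) in shYthdf2 replicates 1, 2 and 4, and 619, 841 and 629 in shCtrl replicates 1, 2 and 4. The shYthdf2 libraries were all below the shCtrl libraries, at 67.3% of the control mean, or a log2 ratio of -0.57 (standard error, SE, 0.16; log2 ratios of single genes are fold changes fitted by edgeR). edgeR's quasi-likelihood test, adjusted by the Benjamini-Hochberg method, gave an adjusted p of 0.125 for Ythdf2, and the two-sided exact permutation test gave 0.1, the smallest p that 3 against 3 libraries allow. The libraries held 17246821 to 21546595 counts. Both libraries of replicate 2 stood apart from those of replicates 1 and 4: the chi-square of the counts per degree of freedom was 3.34 for shYthdf2 replicates 1 and 4 and 4.68 for shCtrl replicates 1 and 4, and 33.1 to 55.3 for the pairs with a replicate 2. Replicates 1 and 4 thus differed by more than counting noise but were far more alike. The 2 libraries of replicate 2 did not stand apart in the same way. On the first principal component of the log2 normalized counts (45.4% of the variance), shCtrl replicate 2 lay at -25.8. That was among shYthdf2 replicates 1, 2 and 4, at -21.7, -34.7 and -20.8, whereas shCtrl replicates 1 and 4 lay at 50.2 and 52.8. On the second (31.9%), both libraries of replicate 2 lay lowest, at -24.9 in shYthdf2 and -45.0 in shCtrl. The study's methods call the 3 libraries of a group biological replicates, and the labels do not say which cultures or animals they came from. The p-values measure the spread between these libraries, which may be in part technical.

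AP-1 is a dimer of basic leucine zipper proteins. Jun proteins can pair with themselves or with Fos proteins, whereas Fos proteins need a Jun partner, and ATF members such as ATF3 can join Jun proteins. In neurons, Fos, Fosb, Junb and Atf3 are immediate-early or stress-response genes that are switched on within minutes of synaptic activity, calcium entry, growth factors or injury, and their mRNAs are short-lived. Jund is expressed more steadily in most cells.

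In RefSeq (GRCm38.p6), 7 of the 8 genes have a window from 250 bases before to 50 bases after the start of transcription, and Fosl1 has none. The stretches below are shown because a cAMP response element (CRE) is a textbook input to immediate-early promoters. They are the 5 member windows with the half-site TGACG or with TGACNTCA, a CRE with 1 free base, searched on both strands. Each runs 5′ to 3′ on the strand of its gene, and the capitals mark the match.
Fos, chr12:85473806-85473846, plus strand: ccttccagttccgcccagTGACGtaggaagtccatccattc
Fosb, chr7:19310083-19310123, minus strand: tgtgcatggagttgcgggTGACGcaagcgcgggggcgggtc
Jun, chr4:95052242-95052285, minus strand: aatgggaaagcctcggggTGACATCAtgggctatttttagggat
Junb, chr8:84978832-84978872, minus strand: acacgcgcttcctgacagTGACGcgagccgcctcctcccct
Atf3, chr1:191183318-191183358, minus strand: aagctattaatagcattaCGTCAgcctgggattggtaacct

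The matches lay 66, 60, 45, 106 and 7 bases before the start in Fos, Fosb, Jun, Junb and Atf3, and in Atf3 the half-site was on the other strand. The Fos window held another TGACG, not shown, at position -129 from the start. TGACG, which is also part of the full CRE TGACGTCA, was in 4 of the 7 member windows and in 20.8% of all 32851 windows, and TGACNTCA was in 1 and in 8.83%. The full CRE was in 0 of the 7 and in 1.79%, and the AP-1 site TGANTCA was in 0 of the 7 and in 7.81%. TATAAA, searched on the strand of the gene, was in the windows of Fos and Junb and in 8.32% of all windows, and the CArG box, the site of serum response factor, was in 0 of the 7 and in 1.63%. Fosl2 and Jund held none of these letters within their windows. The Jund window starts from a RefSeq position upstream of the start in the gene annotation, and the Fosl2 and Atf3 windows from starts inside the annotated genes, so none of these 3 windows covers the annotated start of its gene. All distances here are from the RefSeq start. In Junb that start, chr8:84978748 on the minus strand, also lies upstream of the annotated start, 84978718. TATAAA began at position 0 in Junb, on the RefSeq start itself, and at position -33 in Fos. A match describes letters only, and the motifs were picked with the sequences in view. Sites outside these windows, or with letters other than those searched, were not counted, so a count of 0 does not mean that a promoter lacks such a site.

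Fos (ENSMUSG00000021250, GRCm38 chr12:85473890-85477273), the founding Fos family gene, had 2679, 1362 and 2677 normalized counts in shYthdf2 replicates 1, 2 and 4, and 22274, 6558 and 21734 in shCtrl replicates 1, 2 and 4. Every shYthdf2 library lay below every shCtrl library, but shCtrl replicate 2 held 29.8% of the mean of the other two controls. Group means and SDs were 2239 ± 759 in shYthdf2 and 16855 ± 8922 in shCtrl (n = 3 each), or a log2 ratio of -2.91 (SE 0.50). In bulk RNA, fewer cells expressing a gene and less RNA per cell cannot be told apart, here and for every gene below.

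Fosb (ENSMUSG00000003545, chr7:19302696-19310051), an activity-induced gene whose splice product ΔFosB accumulates in neurons, had the widest spread of the 8. It reached 72.2, 10.7 and 58.4 normalized counts in shYthdf2 replicates 1, 2 and 4, and 1410, 35.9 and 1453 in shCtrl replicates 1, 2 and 4. The groups overlapped, because shCtrl replicate 2 lay below shYthdf2 replicates 1 and 4. The controls differed among themselves by 40.5-fold, more than the 20.5-fold ratio of the group means, 966 ± 806 (SD, n = 3) in shCtrl and 47.1 ± 32.3 (SD, n = 3) in shYthdf2. Within the library pairs of one replicate number, shCtrl exceeded shYthdf2 by 19.5-fold in replicate 1, 3.36-fold in replicate 2 and 24.9-fold in replicate 4.

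Fosl2 (ENSMUSG00000029135, chr5:32135801-32157842), which encodes FRA-2, a Fos protein without the strong activation domain of FOS, had 333, 496 and 309 normalized counts in shYthdf2 replicates 1, 2 and 4. The shCtrl libraries held 2656, 1225 and 2620. The groups did not overlap, and replicate 2 was the highest of the shYthdf2 libraries and the lowest of the shCtrl libraries. Group means and SDs were 379 ± 102 in shYthdf2 and 2167 ± 816 in shCtrl (n = 3 each), or a log2 ratio of -2.51 (SE 0.33). Fosl2 is also among the genes the study selected on these libraries, so its inclusion there is not independent of the values given here.

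Fosl1 (ENSMUSG00000024912, chr19:5447547-5455946), which encodes FRA-1, was the member with no lower level after KD in replicates 1 and 4. Its libraries held 231, 222 and 220 normalized counts in shYthdf2 replicates 1, 2 and 4, and 201, 307 and 181 in shCtrl replicates 1, 2 and 4. The groups overlapped and the log2 ratio was -0.03 (SE 0.22). Its value is uncertain: 1163 of its 2033 exon bases are shared with exons of Ccdc85b on the opposite strand, which had 616 to 1166 counts, and nothing in the sources says that strand was used in counting. Over the 6 libraries log2 CPM (counts per 1000000) of Fosl1 and Ccdc85b had a Pearson r of 0.546, as a description only. Without strand, reads from Fosl1 and from its neighbor cannot be told apart in the shared part.

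**Figure D1:**
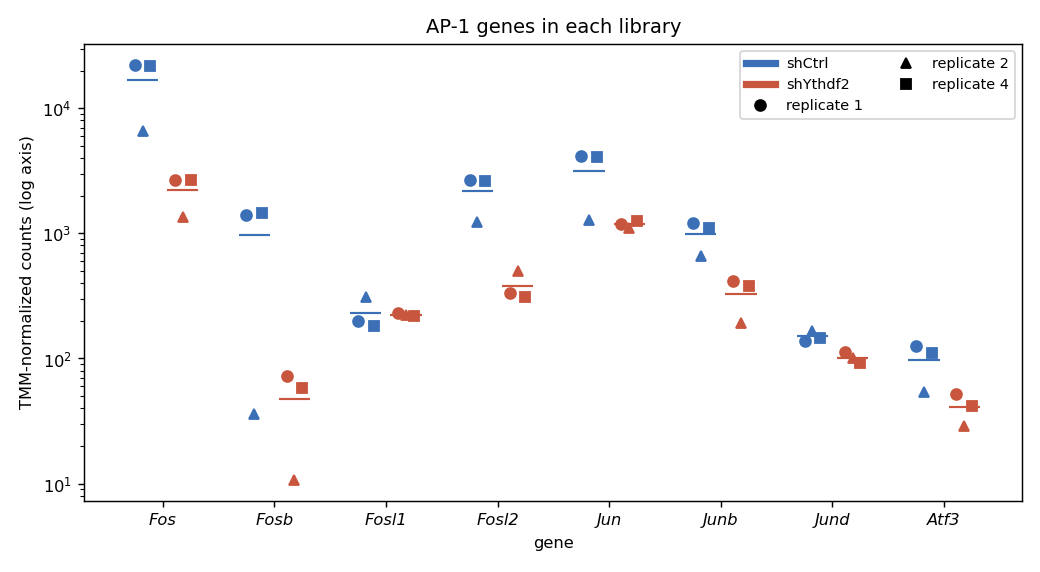
TMM-normalized counts on a log axis for each of the 8 AP-1 genes, with 1 point per library (blue shCtrl, red shYthdf2, shape by replicate number) and a line at the group mean. Fos, Fosl2, Jun, Junb, Jund and Atf3 have all shYthdf2 libraries below all shCtrl libraries, and the shCtrl triangle (replicate 2) is the lowest control for Fos, Fosb, Fosl2, Jun, Junb and Atf3.

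Jun (ENSMUSG00000052684, chr4:95049034-95052222), the main Jun protein gene and a target of JNK signaling in granule neurons, had 1191, 1100 and 1251 normalized counts in shYthdf2 replicates 1, 2 and 4, and 4161, 1286 and 4043 in shCtrl replicates 1, 2 and 4. The groups did not overlap by a narrow margin, since shCtrl replicate 2 stood just above shYthdf2 replicate 4. The 3 shYthdf2 libraries spanned 1.14-fold and the 3 shCtrl libraries 3.24-fold. The log2 ratio was -1.42 (SE 0.40), and the ratio of shCtrl to shYthdf2 was 3.49 and 3.23 in replicates 1 and 4 and 1.17 in replicate 2.

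Junb (ENSMUSG00000052837, chr8:84974484-84978718), an immediate-early Jun gene, had 412, 193 and 377 normalized counts in shYthdf2 replicates 1, 2 and 4, and 1209, 658 and 1098 in shCtrl replicates 1, 2 and 4. Replicate 2 was the lowest library of both groups, and the ratio of shCtrl to shYthdf2 was 2.93, 3.41 and 2.91 in replicates 1, 2 and 4. Unlike Fos, Fosb, Fosl2, Jun and Atf3, Junb thus had its widest difference in replicate 2, as did Jund below. Its log2 ratio was -1.60 (SE 0.33), and 173 of its 2301 exon bases are shared with Prdx2 on the opposite strand, which had 2757 to 4643 counts.

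Jund (ENSMUSG00000071076, chr8:70698949-70700616), the steadily expressed Jun gene, had 113, 101 and 91.3 normalized counts in shYthdf2 replicates 1, 2 and 4, and 138, 167 and 146 in shCtrl replicates 1, 2 and 4. All shYthdf2 libraries were below the shCtrl libraries, and shCtrl replicate 2 was the highest control rather than the lowest. The log2 ratio was -0.56 (SE 0.18). The exons of Jund share 877 of 1668 bases with an annotated antisense gene that has 0 counts in every library. How reads in a shared part were assigned is not given in the sources used here.

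Atf3 (ENSMUSG00000026628, chr1:191170296-191218039), a stress- and injury-induced gene, had 52.3, 29.1 and 41.4 normalized counts in shYthdf2 replicates 1, 2 and 4, and 125, 54.3 and 111 in shCtrl replicates 1, 2 and 4. The groups did not overlap, with shCtrl replicate 2 just above shYthdf2 replicate 1. Group means and SDs were 41.0 ± 11.6 in shYthdf2 and 96.8 ± 37.5 in shCtrl (n = 3 each), or a log2 ratio of -1.24 (SE 0.38).

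Across the 8 genes, the log2 fold change was below 0 for 8 and the median was -1.51, against 0.01 over all genes tested. For 6 of the 8, every shYthdf2 library lay below every shCtrl library, as for 13.4% of all genes tested. Since the members were chosen for this contrast, nothing is read from these counts, and no test call is given for a member. Over all genes tested, 104 (0.604%) were past an adjusted p of 0.05 in edgeR's quasi-likelihood test, 62 of them lower in shYthdf2 (0.36%). The replicate block raised the count to 232 genes, 141 of them lower (0.819%). The counts of genes past the threshold also hang on single libraries. Without shCtrl replicate 2, 3239 genes passed (18.3% of those tested). Without shYthdf2 replicate 2, 829 genes passed (4.7%). Without any 1 of the other 4 libraries (replicates 1 and 4 of both groups), 0 genes passed in edgeR, and 1986 to 2120 had an unadjusted p under 0.05.

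The replicate numbers give 3 side-by-side differences, which are not 3 equal repeats. The median log2 difference of the members was -1.68 in replicate 1, -1.10 in replicate 2 and -1.62 in replicate 4. Over all genes it was 0.0089, 0.0012 and 0.0015. The 7 genes other than Fosl1 were lower in shYthdf2 in every replicate number, and Fosl1 was lower in replicate 2. The share of all genes lower in every replicate number was not counted, so nothing is read from this. For Ythdf2 the ratio of shCtrl to shYthdf2 was 1.23, 2.09 and 1.25 in replicates 1, 2 and 4. The pair with the widest difference in Ythdf2 had the narrowest in Fos, 4.81-fold against 8.32-fold and 8.12-fold. It was also the narrowest in Fosb, Fosl2, Jun and Atf3. In Junb (2.93, 3.41 and 2.91), Jund (1.225, 1.65 and 1.60) and Fosl1 (0.868, 1.38 and 0.825) replicate 2 had the highest ratio, as in Ythdf2. With 3 pairs this was not tested, and libraries of one number were not shown to be true pairs. The Ythdf2 ratio of replicate 2 also holds the highest control, at 841 normalized counts against 619 and 629 in shCtrl replicates 1 and 4.

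**Figure D2:**
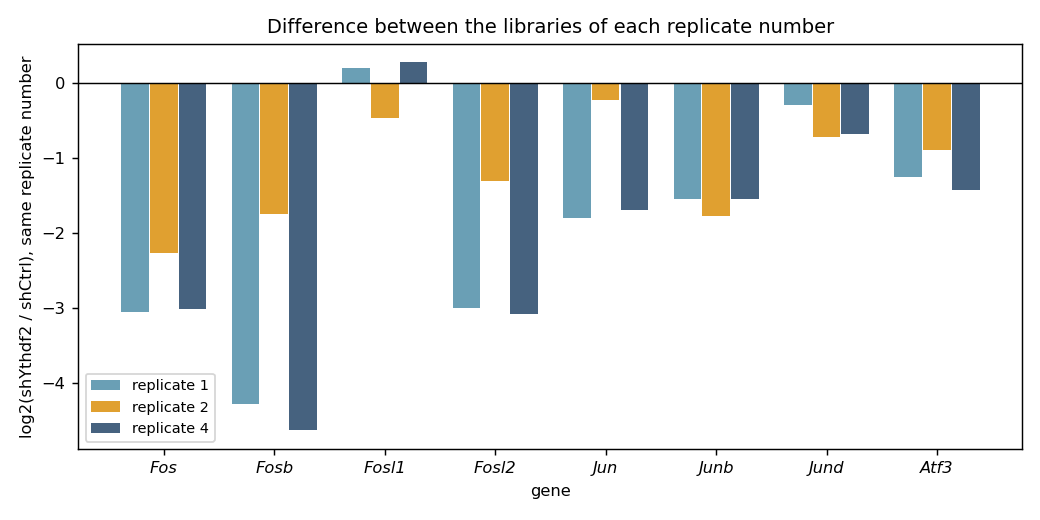
Log2 ratio of the shYthdf2 to the shCtrl library of the same replicate number for each AP-1 gene, with 1 bar per replicate number. The bars of replicates 1 and 4 are of similar size for most genes, whereas that of replicate 2 is shorter for Fos, Fosb, Fosl2, Jun and Atf3 and is -0.22 for Jun.

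Levels between genes were compared per length, as RPKM (counts per kilobase of merged exons per 1000000 counts). In shCtrl the order was Fos at 378 ± 200 (SD, n = 3), Jun at 52.3 ± 26.9 (SD, n = 3), Junb at 22.6 ± 6.67 (SD, n = 3), Fosl2 at 11.8 ± 4.44 (SD, n = 3), Fosb at 8.16 ± 6.80 (SD, n = 3), Fosl1 at 5.96 ± 1.76 (SD, n = 3), Jund at 4.75 ± 0.461 (SD, n = 3) and Atf3 at 2.37 ± 0.918 (SD, n = 3). The libraries of Fos and Jun, of Junb and Fosl2, and of Jund and Atf3 did not overlap, and those of the other neighbors in this order did. Fos stood at percentile 99.8 of the 16619 genes with a length.

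In shYthdf2 the order was Fos at 50.2 ± 17.01 RPKM (SD, n = 3), Jun at 19.5 ± 1.26 (SD, n = 3), Junb at 7.50 ± 2.70 (SD, n = 3), Fosl1 at 5.82 ± 0.156 (SD, n = 3), Jund at 3.21 ± 0.343 (SD, n = 3), Fosl2 at 2.06 ± 0.553 (SD, n = 3), Atf3 at 1.00 ± 0.284 (SD, n = 3) and Fosb at 0.397 ± 0.273 (SD, n = 3). Here only the libraries of Junb and Fosl1 overlapped among neighbors. Fos, Jun and Junb thus kept the first 3 places, and Fosl2 and Fosb ranked behind Fosl1 and Jund. By group mean, Fos was still at percentile 95.1, while Fosb went from percentile 63.7 to 10.2. The control mean of Fosb came from shCtrl replicates 1 and 4, at 11.9 and 12.3 RPKM. In shCtrl replicate 2 Fosb was at 0.303, below shYthdf2 replicates 1 and 4 at 0.609 and 0.493. With the length of the longest transcript in place of the merged exons, both orders were the same. When exon bases shared with another gene were left out of the length, Fosl1 was at 13.9 RPKM in shCtrl and 13.6 in shYthdf2 and Jund at 10.02 and 6.78, which placed Fosl1 between Junb and Fosl2 and Jund between Fosl2 and Fosb in shCtrl, and Fosl1 between Jun and Junb in shYthdf2.

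The balance of the families followed the same libraries. Fos family mRNAs made up 66.8%, 59.6% and 67.1% of the summed RPKM of the 8 genes in shYthdf2 replicates 1, 2 and 4, and 83.6%, 79.0% and 83.9% in shCtrl replicates 1, 2 and 4. The Fos family exceeded the Jun family 2.09-, 1.51- and 2.11-fold in shYthdf2 and 5.26-, 3.89- and 5.37-fold in shCtrl. In both groups replicate 2 had the lowest Fos share, and the groups did not overlap. These shares follow mostly from Fos, which alone held 71.7% to 78.9% of the sum in shCtrl and 46.5% to 59.3% in shYthdf2.

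**Figure D3:**
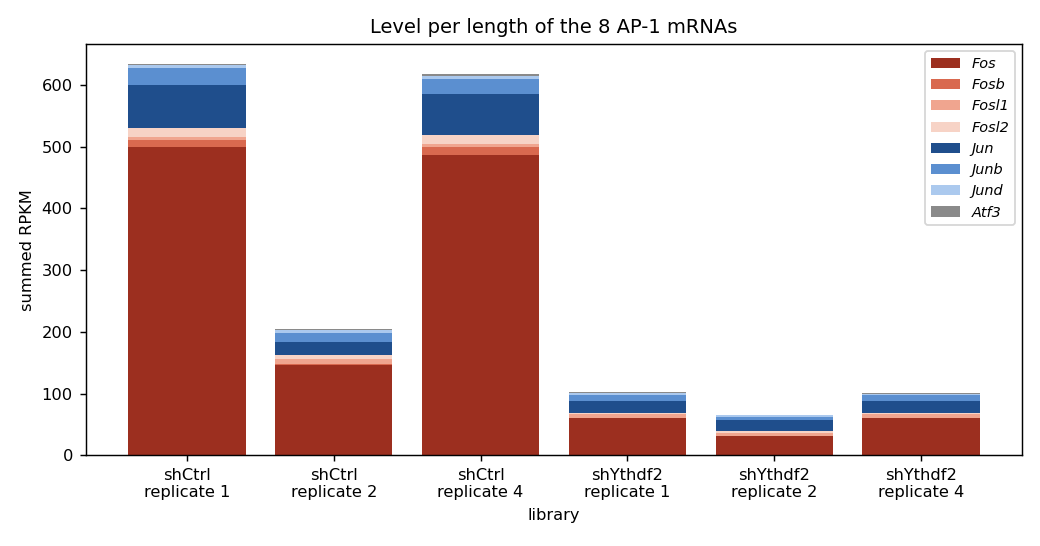
Summed RPKM of the 8 AP-1 mRNAs in each library, stacked by gene (reds Fos family, blues Jun family, gray Atf3). The sum was 634.3, 204.7 and 617.3 in shCtrl replicates 1, 2 and 4 and 102.4, 65.6 and 101.0 in shYthdf2 replicates 1, 2 and 4, with Fos as the largest part of every bar.

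The members are unlike in their transcripts. Jun, Junb and Jund each have 1 exon in their longest transcript and the others have 4. AUUUA elements, which are known to speed the decay of short-lived mRNAs, occurred (as ATTTA in the 3′ UTR of the longest transcript) at 4.91 per kb in Fos, 4.12 in Junb, 3.24 in Jun, 2.53 in Atf3, 1.88 in Jund, 1.72 in Fosl2, 1.57 in Fosl1 and 0.466 in Fosb. The median of 13668 genes was 1.30 per kb, and 7 of the 8 members lay above it. Fosl1, Fosl2 and Jund were above it only at percentiles 56.1, 59.6 and 62.7. By number of elements the median was 2, and 70.8% of the genes had an element. Fosl2 had 8, Fos and Jun 4, Atf3 3, Junb 2, and Fosb, Fosl1 and Jund 1. Whether these densities go with the difference between the groups was not tested. GGACT, a common form of the m6A consensus in which the A can be methylated, occurred in the longest transcript at 2.40 per kb in Jund, 2.20 in Jun, 1.90 in Fos, 1.66 in Junb, 1.32 in Fosb, 1.22 in Fosl2 and 1.01 in Atf3. It occurred 0 times in Fosl1, and the median was 1.05 per kb. Methylation was not measured in these libraries.

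Lists of genes for the cell types of the cerebellum were read beside the members. Granule neuron markers were abundant, with 12 of 12 tested and a summed level of 178400 to 199300 normalized counts in shCtrl and 179000 to 179900 in shYthdf2. Single markers ran both ways, 6 above 0 and 6 below, with log2 fold changes from -0.68 to 0.81. At an unadjusted p under 0.05, 4 were lower and 1 higher, and 0 passed after adjustment in edgeR. Oligodendrocyte markers summed to 5336, 17930 and 5146 in shCtrl replicates 1, 2 and 4, and to 13780, 18350 and 14230 in shYthdf2 replicates 1, 2 and 4. The log2 fold change was above 0 for 9 of the 9. Low oligodendrocyte marker levels and high Fos thus occurred in the same libraries, shCtrl replicates 1 and 4. This was not particular to oligodendrocytes. Those libraries were also the lowest for the microglia, astrocyte, fibroblast and vascular, Purkinje cell and progenitor markers below.

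Microglia markers summed to 212.2, 848.3 and 185.8 in shCtrl replicates 1, 2 and 4 and to 1064, 406.5 and 1165 in shYthdf2 replicates 1, 2 and 4 (7 of 8 tested, 7 above 0, P2ry12 below the filter). Astrocyte markers summed to 7880 to 12360 in shCtrl and 10000 to 10520 in shYthdf2 (8 of 9 tested, 7 above 0, Gjb6 below the filter), and fibroblast and vascular markers to 3188 to 9086 and 4417 to 11140 (9 of 10 tested, 9 above 0, Cldn5 below the filter). Purkinje cell markers summed to 3041 to 3447 in shCtrl and 4318 to 4541 in shYthdf2 (6 of 7 tested, 3 above 0, Ppp1r17 below the filter). Progenitor markers summed to 112.1 to 198.7 and 218.7 to 232.9 (6 of 8 tested, 6 above 0, Gli1 and Ccnb1 below the filter). No marker was at 0 in all libraries. The part of cell makeup in the AP-1 levels was not tested.

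**Figure D4:**
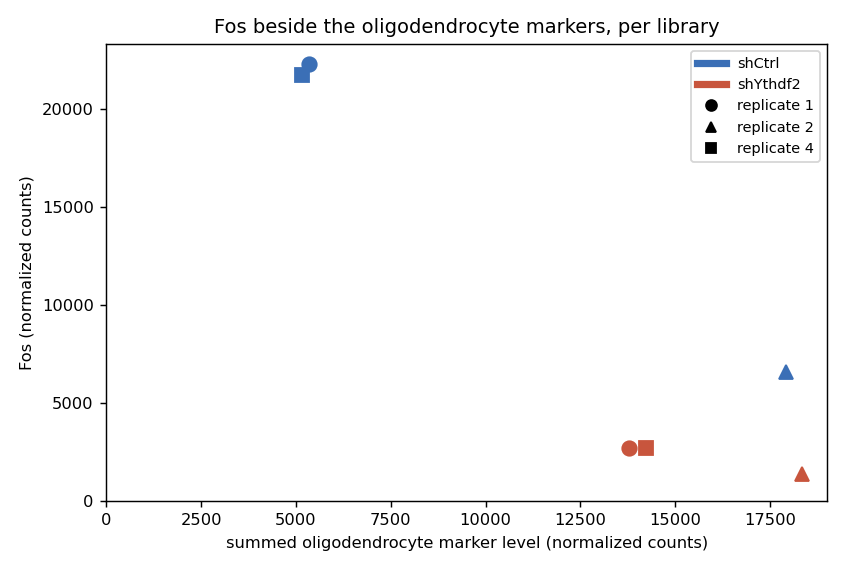
Fos (normalized counts) against the summed level of 9 oligodendrocyte markers (normalized counts), with 1 point per library, colored by group and shaped by replicate number. The shCtrl libraries 1 and 4 sit at upper left, and shCtrl replicate 2 lies near the shYthdf2 libraries in marker level but above them in Fos, at 6558 against 1362 to 2679 normalized counts.

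The pathway around AP-1 was read from 5 lists, with p-values adjusted over all genes tested. Of their 119 genes tested, 1 passed the threshold, and their median log2 fold change was -0.08. Counts in a list are to be read against the shares of all genes tested: 20.1% had an unadjusted p under 0.05 in edgeR (10.6% lower and 9.5% higher), and DESeq2 called 7.67%, limma-voom 0.139% and the fit with the replicate block 1.35%. Among bZIP partners and relatives, 28 of 33 were tested, 20 below 0 and 8 above, with a median of -0.22. At an unadjusted p under 0.05, 8 were lower and 3 higher, and DESeq2 called 7 and limma-voom 0. The 1 gene that passed was Jdp2, a Jun dimerization protein that represses AP-1 sites. It fell, with 318 ± 6.57 normalized counts (SD, n = 3) in shCtrl and 127 ± 31.4 (SD, n = 3) in shYthdf2, or a log2 ratio of -1.33 (SE 0.20), with an adjusted p of 0.0496 by edgeR's quasi-likelihood test. It was lower in 3 of 3 replicate numbers, and its adjusted p ranged from 1.14e-07 to 0.286 over 15 alternatives (0.0528 in limma-voom). In its shCtrl libraries Jdp2 stood at 312, 317 and 325 normalized counts, so unlike Fos it was not low in shCtrl replicate 2.

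In the MAP kinase cascade, which carries growth factor and stress signals to Fos and Jun, 32 of 32 genes were tested and 0 passed by edgeR's quasi-likelihood test. At an unadjusted p under 0.05, 10 were lower and 4 higher (20.1% of all genes in either direction), and DESeq2 called 5 (7.67% of all genes) and limma-voom 0. The median was -0.12. Those with the smallest p were Map3k11, an upstream kinase of JNK (log2 fold change -0.61, SE 0.14, adjusted p = 0.0856), Rps6ka2, a ribosomal S6 kinase downstream of ERK (-0.84, SE 0.22, adjusted p = 0.108), and Map2k6, an activator of p38 (0.48, SE 0.13, adjusted p = 0.116).

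Among regulators of the Fos and Jun promoters, 20 of 21 were tested and 0 passed by edgeR's quasi-likelihood test, with 4 lower and 3 higher at an unadjusted p under 0.05 (20.1% of all genes). DESeq2 called 5 (7.67% of all genes), limma-voom 0, and the fit with the replicate block 3 (1.35% of all genes), 2 of them lower and 1 higher. The median was 0.01, with 9 genes below 0 and 11 above. Mef2d, a calcium-responsive factor of granule neurons, reached 9100 ± 2118 normalized counts (SD, n = 3) in shCtrl and 4410 ± 148 (SD, n = 3) in shYthdf2, or a log2 ratio of -1.04 (adjusted p = 0.0527, and 0.0452 with the block). Mef2c followed at -1.56 (adjusted p = 0.0589), and Camk2a, a calcium-dependent kinase, at 1.14 (adjusted p = 0.0914, and 0.0468 with the block).

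Among genes for the turnover of AP-1 mRNA and protein, 18 of 18 were tested and 0 passed by edgeR's quasi-likelihood test, with 3 lower and 2 higher at an unadjusted p under 0.05 (20.1% of all genes). DESeq2 called 2 (7.67% of all genes) and limma-voom 0, and the median was -0.04. The smallest p-values were those of Trib1, a pseudokinase that brings substrates to the ligase COP1, at -0.78 (adjusted p = 0.0744), of Elavl4, a neuronal protein that stabilizes AU-rich mRNAs, at 0.59 (adjusted p = 0.0898), and of Elavl1, its ubiquitous relative, at -0.37 (adjusted p = 0.140).

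Among textbook AP-1 target genes, 22 of 30 were tested and 0 passed by edgeR's quasi-likelihood test, with 4 lower and 0 higher at an unadjusted p under 0.05 (20.1% of all genes). DESeq2 called 1 (7.67% of all genes) and limma-voom 0. The median was 0.17, with 13 genes above 0 and 9 below. Vgf, a neuropeptide precursor, had 1840, 3707 and 2033 normalized counts in shYthdf2 replicates 1, 2 and 4 and 25912, 7725 and 24136 in shCtrl replicates 1, 2 and 4. Its libraries did not overlap between groups, and shCtrl replicate 2 was again the lowest control. The log2 ratio was -2.93 (SE 0.49, adjusted p = 0.0527). Mmp3, a metalloproteinase with few counts, was at -1.20 (adjusted p = 0.173) and Vegfa, an angiogenic factor, at -0.79 (adjusted p = 0.218), with overlapping groups.

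Of 20 other immediate-early genes, 19 were tested, and their log2 fold changes ran from -4.89 to 0.24 with a median of -1.20. Of these, 3 passed in edgeR's quasi-likelihood test (Benjamini-Hochberg over all genes), all lower, and 14 were lower at an unadjusted p under 0.05 (10.6% of all genes). With the replicate block 5 passed (1.35% of all genes), DESeq2 called 11 (7.67% of all genes) and limma-voom 0. The 3 are named after their values were seen: Npas4, a neuronal activity-regulated factor (-4.89, SE 0.62, adjusted p = 0.0430), Nr4a3, an orphan nuclear receptor (-3.44, SE 0.43, adjusted p = 0.0430, and 0.0519 with the block), and Ier2 (-1.48, SE 0.23, adjusted p = 0.0496). Over 15 alternatives the highest adjusted p was 0.286 for each. Their libraries did not overlap between groups, and shCtrl replicate 2 was the lowest control for all 3, for example at 1927 normalized counts of Npas4 against 9846 and 9761 in shCtrl replicates 1 and 4. The list was drawn up with earlier results of these data known.

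**Figure D5:**
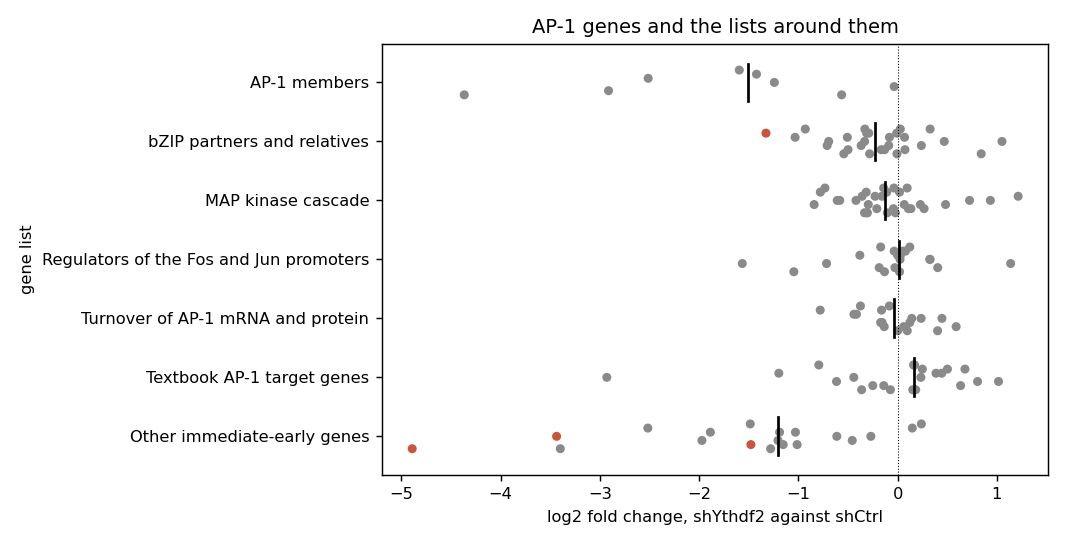
Log2 fold change of shYthdf2 against shCtrl for the 8 AP-1 genes and the genes tested in 6 lists around them, with 1 point per gene and a black line at each median. Red marks genes past an adjusted p of 0.05 and was not used for the AP-1 genes. The red genes are Jdp2 among bZIP partners, and Npas4, Nr4a3 and Ier2 among other immediate-early genes. The median of other immediate-early genes, -1.20, is the nearest to the -1.51 of the AP-1 genes.

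The genes whose pattern over the 6 libraries was most like the mean profile of the members were Sfrp1 (Pearson r of log2 CPM 0.995), Dus4l (0.994), Sorcs1 (0.994), Wwc2 (0.993) and Nab1 (0.993), among 12567 genes with a mean of at least 50 normalized counts. The points are 6 libraries in 2 groups, so r is a description that mixes the group difference with the difference of replicate 2. Their log2 ratios were -0.40 for Sfrp1, a secreted Wnt antagonist, -0.82 for Dus4l, -0.65 for Sorcs1, -0.73 for Wwc2 and -0.39 for Nab1, a corepressor of EGR factors. All 5 were smaller in size than those of 6 members and larger than that of Fosl1, and Jund, at -0.56, lay among them. When Fos alone was the model, the 5 closest genes were Acap3, Actr1b, Dazap1, 1700016P03Rik and Brms1, and 0 of the 5 were shared. Among the members, r to the mean profile was 0.99 for Fos, 0.98 for Junb, 0.95 for Atf3, 0.94 for Fosl2, 0.88 for Jun, 0.86 for Fosb, 0.83 for Jund and -0.24 for Fosl1. Each member is part of that profile, which raises its r.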

How the data were processed

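The authors deposited 1 table of raw counts per gene for 6 libraries; by the paper's methods, they filtered the reads, aligned them to GRCm38 (HISAT, TopHat2) and used HTSeq for counting. The submitters' processing notes name mm9 and Bowtie 0.12.2 instead, and the labels name a TruSeq kit where the methods name a NEBNext kit. Neither conflict was resolved. Of the 53421 genes, 52489 were matched to a symbol and 785 were outside the GRCm38 annotation used.

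Counts were tested in R 4.3.3 with edgeR 4.0.16 (filterByExpr with a minimum count of 10 and total of 15, TMM, quasi-likelihood test without a block, Benjamini-Hochberg over 17214 genes). DESeq2 1.42.0 and limma-voom (limma 3.58.1) were alternatives, and the test was tried on simulated data. RPKM and log2 CPM (prior count 2) were computed here. Deviations from the group means correlated at 0.251, 0.362 and 0.291 between the libraries numbered 1, 2 and 4, and a fit with a replicate block was added. Libraries of unlike number were not correlated, and both libraries of replicate 2 stood apart. These values therefore do not show that library 1 pairs with 1 rather than with 4. Genes with few counts are the least precise at this depth, and an SD holds both counting error and differences between libraries.

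The members, gene lists and motifs were chosen with earlier results of these data known. Named were all members, Ythdf2, in each of the 5 pathway lists the genes past the threshold or otherwise the 3 with the smallest p, and the 5 genes most like the members.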

Additional observations from a re-analysis of the deposited data

How the results depend on the processing

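The 8 AP-1 genes kept their direction under all 15 alternatives except Fosl1, whose log2 fold change ran from -0.18 to 0.23. The ranges were -3.30 to -2.65 for Fos, -4.94 to -3.55 for Fosb, -3.04 to -2.35 for Fosl2, -1.80 to -1.18 for Jun, -1.82 to -1.32 for Junb, -0.65 to -0.48 for Jund and -1.53 to -1.02 for Atf3. The median of the members stayed between -1.81 and -1.30. Counts of genes past the threshold were far less steady. Over all genes, 104 passed in the edgeR fit, 1320 in DESeq2, 24 in limma-voom and 639 without the filter. In the 5 pathway lists together, 1 passed in the edgeR fit, 20 in DESeq2, 0 in limma-voom and 10 without the filter. With the replicate block, 232 genes and 4 list genes passed. Leaving out 1 library gave 0 to 3239 genes and 0 to 34 list genes, both highest without shCtrl replicate 2. Chosen after seeing the data were a batch term for replicate 2, with 3799 genes and 39 list genes, and a comparison without both libraries of replicate 2, with 9186 genes and 84 list genes; the latter has only replicates 1 and 4, which were much alike. Why the counts differ was not tested. Ythdf2 passed in DESeq2 at -0.575 (adjusted p = 0.0392), with the batch term at -0.565 (adjusted p = 0.0465) and without replicate 2 at -0.319 (adjusted p = 0.00124), and in the other 12 alternatives it did not (-0.657 to -0.414, the range over leaving out 1 library). Of the 5 genes most like the member profile, 0 were shared with those most like Fos alone. The 18 genes named from the pathway lists and for likeness kept their direction in all alternatives that gave a value.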
